A study of Mus musculus with 36 samples.

Results

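The palates described here came from TGFβ3+/- mouse embryos at embryonic day (E) 14.5 and E16.5, a span in which the palatal shelves meet, fuse and begin to ossify. They were chosen by their library titles: 8 of the 36 libraries of the series, from 4 of its 18 animals. Each age had 2 TGFβ3+/- animals and each animal was sequenced in 2 lanes, which were averaged. Transcript levels are given as FPKM, a fragment count scaled to transcript length and to the size of the library. TGFβ3+/- embryos carry 1 Tgfb3 allele disrupted by a pMC1-Neo cassette and 1 intact allele, in every cell of the embryo, on a C57BL/6 background. All of these embryos came from matings between TGFβ3+/- parents, so their mothers were heterozygous too. No agent was given. The whole palate was dissected, so each value is an average over epithelium, mesenchyme, bone, vessels, blood and any neighboring tissue that came with it. The sources used here do not say whether a replicate is 1 embryo or a pool. E15.5 TGFβ3+/- palates (2 animals) are used only to place a level between the ages. The titles put 4 libraries at that age, while the age field of 3 of them reads 14.5. WT palates and TGFβ3-/- palates (both Tgfb3 alleles disrupted) of these ages serve for comparison, again as pairs of animals.

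The secondary palate forms from paired shelves of neural crest mesenchyme covered by oral and nasal epithelium. After the shelves have met, the epithelial seam between them is lost, bone spreads into the anterior palate, the oral surface stratifies and the nasal surface becomes a ciliated airway lining. TGFβ3 is made by the medial edge epithelium and is needed for the seam to disappear. Mice without it are born with cleft palate, whereas heterozygotes are used as carriers with 1 working allele.

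The 8 libraries listed between 21948 and 24339 assembled loci, and 12626 to 13526 annotated genes received a value. These were 12626 to 12834 genes in the E14.5 libraries and 13237 to 13526 in the E16.5 libraries. Cufflinks gives each locus a 95% interval. Its median half-width was 12% to 12.6% of the FPKM at E14.5 and 13.3% to 14.1% at E16.5. The ages did not overlap in either measure. The part of this in the counts of genes that rose or lacked a locus was not tested. The depth behind a value cannot be read from the FPKM tables. The study lists the reads of each replicate in a supplement, which was not used here. Over 11359 genes the correlation of log2(FPKM + 1) between the animals of an age was 0.972 for E14.5, 0.985 for E15.5 and 0.964 for E16.5. It lay between 0.916 and 0.935 for pairs of an E14.5 and an E16.5 animal. The E14.5 libraries were run in lanes 1 and 2 and the E16.5 libraries in lanes 6 and 7, so that age and lane cannot be told apart. E16.5 animal 2 was the only TGFβ3+/- animal with loci at Y-linked genes, with Eif2s3y at 20.9 FPKM and Ddx3y at 15.9 FPKM. Its Xist level was 0.0378 FPKM against 99.7 to 136 in the animals of E14.5 and the other E16.5 animal.

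Tgfb3 itself (chromosome 12, 87397694 to 87419991, mm9) was present at every age. It measured 28.5 and 31.8 FPKM (E14.5), 33.5 and 31.3 (E15.5) and then 37.3 and 37.1 (E16.5). The E16.5 animals lay above the E14.5 animals, but the gene was not called (log2 change 0.30, SE 0.16, adjusted p = 0.263). WT palates gave 32.3 and 33.8 FPKM at E14.5 and 27.6 and 35.3 at E16.5, and TGFβ3-/- palates 38.2 and 33.0 FPKM at E14.5 and 42.6 and 42.0 at E16.5. The level over the whole locus was thus not lower in the palates labelled TGFβ3-/-, and it does not check the genotype labels.

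From E14.5 to E16.5, 602 of 12856 genes tested rose and 44 fell in TGFβ3+/- palates (4.68% and 0.342% of the genes tested). A gene was called when its adjusted p from limma was under 0.05 and its change was at least 2-fold on the log2(FPKM + 1) scale. This scale understates the change of genes near 0. A gene under 1 FPKM in its E14.5 animals could not reach a 2-fold fall on it, so that such a gene could only be called as rising. How many of all genes tested had E14.5 and E16.5 animals that did not overlap was not counted. The median change of all genes tested was -0.0028. Genes that rose had a median change of 1.49 on the log2 scale, with 161 at 2 or more and 43 at 3 or more. Those that fell had a median size of 1.22, with 5 at 2 or more. Among the genes that rose were bone matrix genes, keratins, genes of motile cilia, airway secretory genes and myeloid genes. Hemoglobin chains of the embryonic blood gave the greatest falls. A difference in a bulk sample does not tell a larger number of cells of a type from more RNA per cell. The gene lists used below were chosen with earlier results of these data known. Their counts, set beside the share of all genes tested, are therefore descriptions and not tests of a list. With only genes that had a value in all 4 animals, a restriction added after the data were seen, 499 rose and 35 fell. Without E14.5 animal 2 the count of genes that rose was 396.

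**Figure D1:**
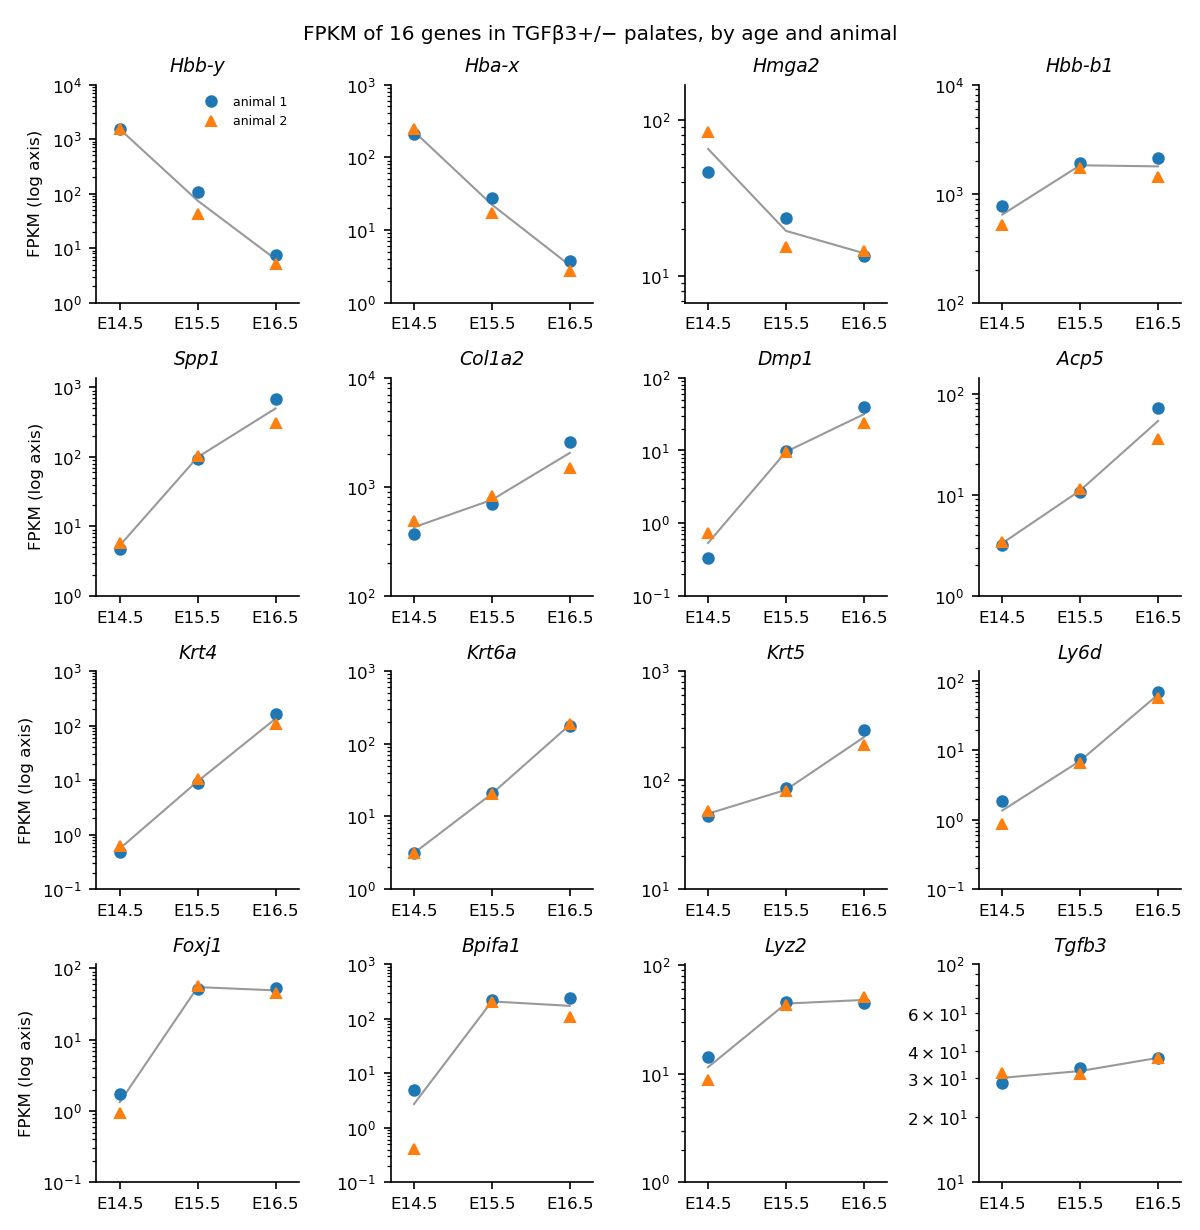
FPKM of 16 genes in TGFβ3+/- palates by embryonic day, on a log axis that differs between panels. Points are the 2 animals of an age (numbered within an age, so animal 1 of E14.5 is not animal 1 of E16.5) and the line joins their means. Hbb-y falls from 1508 and 1531 FPKM to 7.5 and 5.02, while Krt4 rises from under 1 FPKM to over 100.

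Red blood cells switch their globin chains before birth, from embryonic chains made in yolk sac erythrocytes to adult chains made by cells from the fetal liver. Hbb-y, an embryonic β-like chain (chromosome 7, 111000259 to 111001754), measured 1508 and 1531 FPKM (E14.5), 106 and 42.4 (E15.5) and then 7.5 and 5.02 (E16.5). This was the greatest fall of any gene tested (log2 change -7.73, SE 0.50, adjusted p = 2.44e-05). Hba-x, the embryonic ζ chain, measured 208 and 245 FPKM (E14.5), 27.7 and 16.9 (E15.5) and then 3.77 and 2.77 (E16.5), with a log2 change of -5.74, SE 0.42, adjusted p = 3.95e-05. The animals of the 3 ages did not overlap for either gene, and both E15.5 animals lay between those of E14.5 and E16.5. A further embryonic chain, Hbb-bh1, measured 9.46 and 13.0 FPKM at E14.5 and had no locus in any E16.5 library. The adult chains were not called. Hbb-b1 measured 772 and 511 FPKM (E14.5), 1908 and 1726 (E15.5) and then 2131 and 1421 (E16.5), with every later animal above the E14.5 animals (log2 change 1.47, SE 0.61, adjusted p = 0.141). Hbb-b1 and Hbb-b2 are near-identical, and reads could be split between them. Of the other erythroid genes, the membrane transporter Slc4a1 measured 3.81 and 4.24 FPKM at E14.5 and 1.55 and 1.29 at E16.5 (adjusted p = 0.0703) and the globin regulator Klf1 stayed under 1 FPKM throughout. Of 9 erythroid genes tested, 2 were called, both embryonic globins that fell, against 0.342% of all genes tested.

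The upstream stretches of the embryonic globins that fell are shown because CCACCC, the core of the box read by erythroid Krüppel-like factors, stood in both. The sequences are from RefSeq promoter windows (GRCm38.p6, a later build than the mm9 positions of the loci), 5′ to 3′, with the motif in capitals. Hbb-y is at chr7:103853269-103853364, minus strand, and Hba-x at chr11:32276459-32276554, plus strand.
Hbb-y: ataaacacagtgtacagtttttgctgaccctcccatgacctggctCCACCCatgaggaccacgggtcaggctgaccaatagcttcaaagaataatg
Hba-x: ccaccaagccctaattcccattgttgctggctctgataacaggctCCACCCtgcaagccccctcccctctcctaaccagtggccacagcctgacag
CCACCC or its complement GGGTGG was found within 250 bases upstream of both genes and upstream of 30.6% of 27025 genes with a promoter window. A form of the GATA site, AGATAA or on the other strand TTATCT, was in neither window and in 11.4% of all. Other forms of the site were not searched, and the letters TGATAA stand in the Hba-x stretch shown above. These are matches of letters and not measured binding.

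Osteoblasts lay down type I collagen and then mineralize it. Of 22 osteoblast and bone matrix genes tested 13 rose, against 4.68% of all genes tested, and none fell. The median change was 1.37, against -0.0028 for all genes. The 22 were 10 matrix, 4 mineralization, 4 transcription factor and 4 signal genes, and none of the last 2 kinds was called. With only the E14.5 and E16.5 TGFβ3+/- animals in the fit, 8 of the 22 rose. Among structural and matrix proteins 9 of 10 rose. Col1a2, a chain of type I collagen, measured 366 and 486 FPKM (E14.5), 696 and 822 (E15.5) and then 2588 and 1504 (E16.5), with a log2 change of 2.22, SE 0.31, adjusted p = 0.00118. Spp1, osteopontin (chromosome 5, 104864137 to 104870069), measured 4.77 and 5.87 FPKM (E14.5), 94.7 and 104 (E15.5) and then 688 and 309 (E16.5), with a log2 change of 6.20, SE 0.35, adjusted p = 1.05e-05. No E14.5 animal came near an E15.5 animal for Spp1, and the E16.5 animals were higher still though unlike each other. Sparc, osteonectin, measured 374 and 433 FPKM (E14.5), 877 and 905 (E15.5) and then 1916 and 1411 (E16.5), with a log2 change of 2.03, SE 0.25, adjusted p = 5.67e-04. Dmp1, a matrix protein of osteocytes, measured 0.329 and 0.740 FPKM (E14.5), 9.76 and 9.43 (E15.5) and then 39.5 and 23.5 (E16.5), with a log2 change of 4.37, SE 0.44, adjusted p = 2.40e-04. Omd, osteomodulin, measured 6.18 and 6.27 FPKM at E14.5 and 58.1 and 36.4 at E16.5 and changed by 2.70, and Ifitm5, found in bone-forming cells, measured 9.65 and 13.8 FPKM at E14.5 and 84.7 and 68.7 at E16.5 and changed by 2.62, a call lost without animal 1 of either age. Ibsp, bone sialoprotein, had 74.9 and 180.3 FPKM at E14.5 and 458 and 616 at E16.5 and was not called (log2 change 2.18, SE 0.87, adjusted p = 0.122). Its E14.5 animals stood far apart.

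All 4 mineralization genes tested rose. Alpl, the phosphatase that frees phosphate for mineral, measured 44.4 and 43.3 FPKM (E14.5), 74.0 and 76.8 (E15.5) and then 142 and 107 (E16.5), with a log2 change of 1.47, SE 0.24, adjusted p = 0.00265. Smpd3 changed by 2.21, Enpp1, which makes the mineralization inhibitor pyrophosphate, by 1.27, and the pyrophosphate transporter Ank by 1.04. Osteocalcin could not be tested, because Bglap had no locus in any E14.5 library. It measured 4.73 and 6.93 FPKM at E15.5 and 44 and 34.6 FPKM at E16.5. Its near-identical neighbor Bglap2 likewise had no E14.5 locus, and gave 3.28 and 4.04 FPKM (E15.5) and 28.3 and 21.2 FPKM (E16.5). Mepe, made by osteocytes, went the same way, at 1.42 and 0.834 FPKM in the E16.5 animals. None of the 4 lineage regulators tested was called. Sp7, the osteoblast transcription factor osterix, measured 26.5 and 29.2 FPKM (E14.5), 37.4 and 37.4 (E15.5) and then 66.3 and 48.1 (E16.5), which passed the adjusted p but missed the 2-fold limit (log2 change 0.99, SE 0.23, adjusted p = 0.0158). Dlx5 changed by 0.12, with adjusted p = 0.879. The E16.5 animals were unequal. The median ratio of animal 2 to animal 1 over the 22 genes was 0.706, and leaving out animal 1 of E16.5 left 9 genes called.

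TGTGGT, the letters of the RUNX site, is shown upstream of 3 of the bone genes that rose or first had a locus after E14.5. Capitals mark the motif or its complement ACCACA. Spp1 is at chr5:104434938-104435033, plus strand, Dmp1 at chr5:104202408-104202503, plus strand, and Bglap at chr3:88384548-88384643, minus strand (GRCm38.p6, RefSeq).
Spp1: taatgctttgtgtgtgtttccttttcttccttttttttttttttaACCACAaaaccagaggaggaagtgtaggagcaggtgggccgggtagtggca
Dmp1: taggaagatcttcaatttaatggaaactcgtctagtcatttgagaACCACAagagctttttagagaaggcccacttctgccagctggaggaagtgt
Bglap: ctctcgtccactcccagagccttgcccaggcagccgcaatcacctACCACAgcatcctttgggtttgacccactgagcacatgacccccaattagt
Of 14 such bone genes with a promoter window, 5 held it within 250 bases upstream (Bglap, Dmp1, Enpp1, Mepe and Spp1), against 15.9% of all genes. It was not in the windows of the other 9, which included Alpl and Sparc.

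Osteoclasts, the cells that resorb bone, were represented by 9 tested genes, of which 6 rose and none fell (median change 1.70). Over all genes tested 4.68% rose. When only the 4 compared animals were fitted, 3 of the 9 rose. Acp5, the tartrate-resistant phosphatase, measured 3.19 and 3.44 FPKM (E14.5), 10.7 and 11.4 (E15.5) and then 71.8 and 35.5 (E16.5), with a log2 change of 3.58, SE 0.38, adjusted p = 2.14e-04. Ctsk, the collagen-cutting cathepsin, measured 23.3 and 26.9 FPKM (E14.5), 51.9 and 52.3 (E15.5) and then 224 and 121 (E16.5), with a log2 change of 2.67, SE 0.28, adjusted p = 2.14e-04. Mmp9 measured 8.82 and 8.63 FPKM at E14.5 and 70.0 and 38.0 at E16.5 (log2 change 2.44) and Atp6v0d2, a proton pump subunit, 0.248 and 0.205 FPKM at E14.5 and 11.9 and 5.19 at E16.5 (log2 change 2.87), although its loci covered under 50% of the exonic bases in some animals. At E15.5 a median of 36.1% of their change on the log2 scale was present. In all 9 genes E16.5 animal 1 was above animal 2, with a median ratio of animal 2 to animal 1 of 0.543. Tnfsf11, the ligand that drives osteoclast formation, measured 1.22 and 1.36 FPKM at E14.5 and 3.69 and 1.94 at E16.5. Its decoy receptor Tnfrsf11b measured 1.96 and 1.44 FPKM at E14.5 and 5.34 and 2.91 at E16.5. Both passed the adjusted p alone (0.0458 and 0.0270). Mmp13, the collagenase of late cartilage and bone, had no E14.5 locus and then measured 9.01 and 8.76 FPKM (E15.5) and 103 and 45.4 FPKM (E16.5).

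Of 20 cartilage genes tested 1 rose, against 4.68% of all genes tested. The highest mean of 17 of the 20 was at E15.5 and not at either end of the comparison. The age of highest mean was not counted over all genes. Col2a1, the main collagen of cartilage, measured 287 and 339 FPKM (E14.5), 627 and 900.5 (E15.5) and then 411 and 331 (E16.5), with a log2 change of 0.24, adjusted p = 0.885. Matn1, a cartilage matrilin, measured 44.6 and 35.9 FPKM (E14.5), 178 and 172 (E15.5) and then 48.3 and 42.3 (E16.5). The cartilage levels of E15.5 lay above those of both other ages for these genes. Ucma, made by immature chondrocytes, was the gene called (1.15 and 0.8 FPKM at E14.5 and 4.17 and 5.03 at E16.5, log2 change 1.51), and it was not called when any single animal was left out. The share of cartilage in each dissection was not measured otherwise.

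The fibrous matrix of the mesenchyme also gained, with 8 of 22 genes rising, against 4.68% of all genes tested, and none falling. Aspn, asporin, a small proteoglycan that binds collagen, measured 42.4 and 44.6 FPKM (E14.5), 114 and 78.3 (E15.5) and then 211 and 175 (E16.5), with a log2 change of 2.12, SE 0.28, adjusted p = 7.80e-04. Fmod, fibromodulin, measured 6.56 and 8.11 FPKM (E14.5), 28.5 and 32.7 (E15.5) and then 36.7 and 30.3 (E16.5), with a log2 change of 2.05, SE 0.29, adjusted p = 0.00123. Eln, elastin, measured 104 and 83.0 FPKM (E14.5), 193 and 205 (E15.5) and then 250.5 and 235 (E16.5), with a log2 change of 1.38, SE 0.24, adjusted p = 0.00320. Thbs2, Col6a3, Ogn, Col5a2 and Col6a1 rose by 1.28, 1.19, 1.16, 1.02 and 1.01. Col3a1, the most abundant of the list after E14.5, measured 393 and 456 FPKM (E14.5), 392 and 426 (E15.5) and then 773 and 633 (E16.5), and passed the adjusted p without reaching 2-fold (log2 change 0.72, SE 0.18, adjusted p = 0.0213). Vcan, versican, typical of early loose mesenchyme, measured 54.4 and 101 FPKM at E14.5 and 44.3 and 39.2 at E16.5 and was not called (log2 change -0.82, SE 0.33, adjusted p = 0.127). Leaving out E16.5 animal 1 left 4 of these genes called, and leaving out E14.5 animal 1 left 5.

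**Figure D2:**
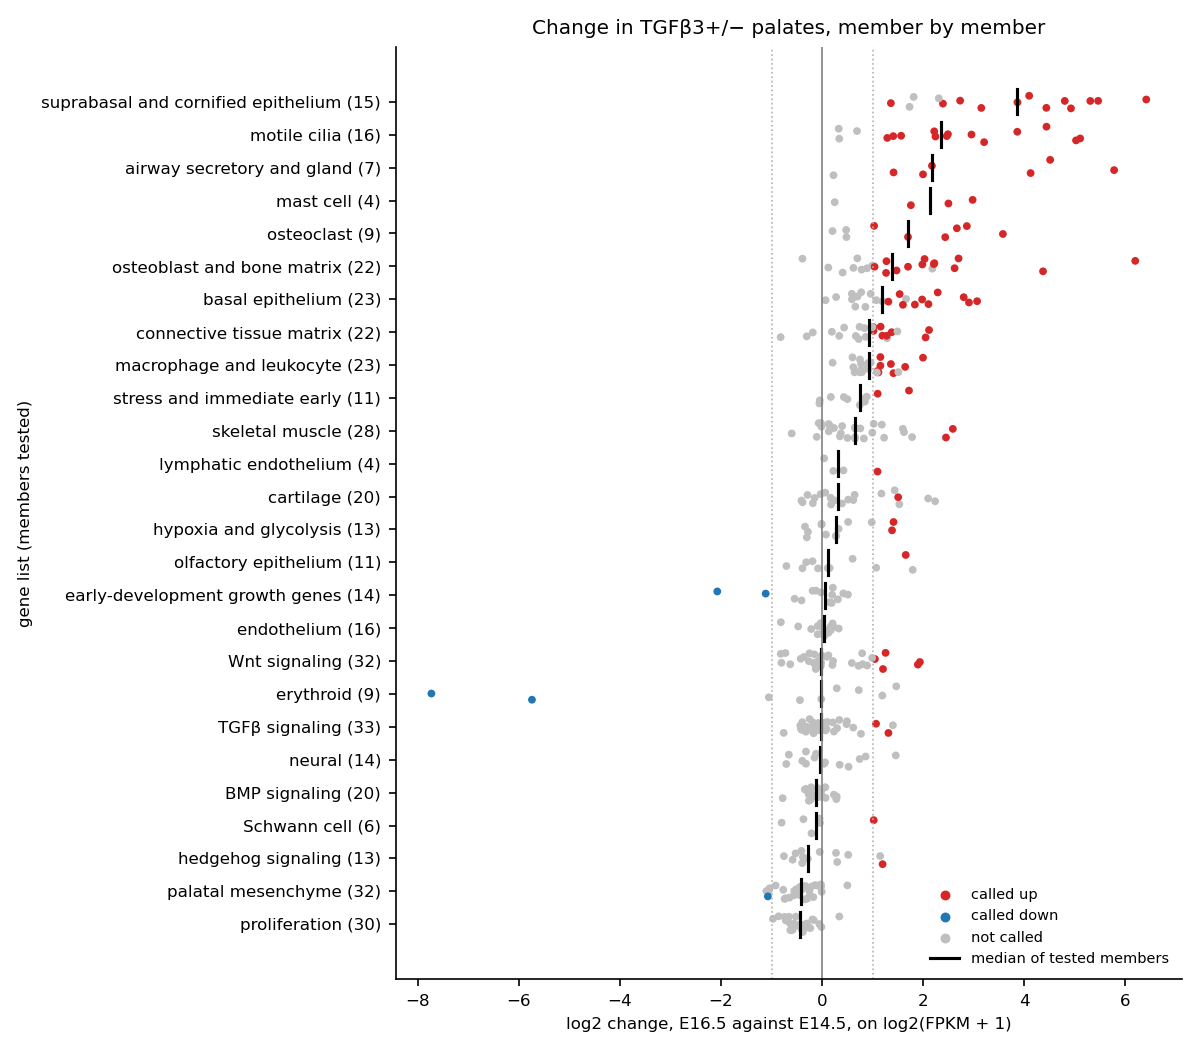
Change from E14.5 to E16.5 in TGFβ3+/- palates (x axis, log2 scale) of every tested member of the 26 gene lists with at least 4 tested members, other than the cleft palate genes (y axis, number tested in parentheses). Red and blue points were called up and down, gray points were not called, black bars are medians and dotted lines mark 2-fold. The cornified epithelium list has the highest median, 3.87, and the proliferation list the lowest, -0.45.

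Keratinocytes leave the basal layer, change their keratins and cross-link a cornified envelope as they near the surface. In the basal layer 10 of 23 genes rose, against 4.68% of all genes tested, and none fell. Krt5, a basal keratin, measured 46.7 and 51.7 FPKM (E14.5), 83.8 and 79.0 (E15.5) and then 286 and 209 (E16.5), with a log2 change of 2.29, SE 0.35, adjusted p = 0.00160. Krt15 measured 34.9 and 35 FPKM (E14.5), 105 and 87.9 (E15.5) and then 268 and 269.7 (E16.5), with a log2 change of 2.91, SE 0.35, adjusted p = 3.94e-04. Krt19, a keratin of simple and oral epithelium, measured 6.82 and 5.15 FPKM (E14.5), 38.8 and 39.1 (E15.5) and then 48.3 and 46.6 (E16.5), with a log2 change of 2.80, SE 0.27, adjusted p = 1.36e-04. Pkp1, a plate protein of desmosomes, measured 3.63 and 3.58 FPKM (E14.5), 8.25 and 7.70 (E15.5) and then 46.1 and 30.7 (E16.5), with a log2 change of 3.07, SE 0.45, adjusted p = 0.00144. Perp, Col17a1, Lamb3 and Sfn, which serve adhesion, the basement membrane or the cell cycle of keratinocytes, rose by 2.11, 1.60, 1.53 and 1.31. Their regulators were not called. Trp63, the master factor of stratified epithelium, measured 7.56 and 7.08 FPKM (E14.5), 7.52 and 6.55 (E15.5) and then 13.3 and 9.99 (E16.5), with a log2 change of 0.59, SE 0.25, adjusted p = 0.153. Epcam, of simple epithelium, measured 48.0 and 15.9 FPKM (E14.5), 58.1 and 52.2 (E15.5) and then 38.4 and 29.8 (E16.5). E14.5 animal 2 was lower than E14.5 animal 1 for Epcam, Cdh1, Krt8 and Krt18, and without it 7 basal genes were called.

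Suprabasal and cornified genes gave 12 rises among 15 tested, against 4.68% of all genes tested, and no fall. For those under 1 FPKM at E14.5, such as Krt4, a fall could not have been called. Krt4, a keratin of the suprabasal cells of oral mucosa (chromosome 15, 101748967 to 101755166), measured 0.483 and 0.625 FPKM (E14.5), 8.68 and 10.3 (E15.5) and then 159 and 109 (E16.5), with a log2 change of 6.42, SE 0.45, adjusted p = 3.33e-05, the largest rise of any gene tested. Krt6a measured 3.12 and 3.15 FPKM (E14.5), 20.7 and 20.3 (E15.5) and then 177 and 186 (E16.5), with a log2 change of 5.46, SE 0.61, adjusted p = 2.72e-04. Krt13, the partner of Krt4, had no locus in any E14.5 library and then measured 15.9 and 16.7 FPKM (E15.5) and 507 and 331 FPKM (E16.5). Ly6d measured 1.84 and 0.878 FPKM (E14.5), 7.52 and 6.64 (E15.5) and then 69.8 and 57.8 (E16.5), with a log2 change of 4.80, SE 0.32, adjusted p = 3.95e-05. In each of these genes the E15.5 animals stood well apart from both ages compared. Krt1 and Krt10 are the keratin pair of epidermis. Krt1 measured 7.44 and 1.48 FPKM at E14.5 and 103 and 41.8 at E16.5 and was called (log2 change 3.87, SE 0.85, adjusted p = 0.0115). Krt10 measured 9.32 and 4.48 FPKM at E14.5 and 58.4 and 10.7 at E16.5 and was not (log2 change 1.81, SE 0.82, adjusted p = 0.176).

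Among envelope proteins Sprr1a measured 0.539 FPKM in the 1 animal with a value (E14.5), 7.33 and 8.86 (E15.5) and then 53.2 and 39.4 (E16.5), with a log2 change of 4.93, SE 0.63, adjusted p = 0.00169. Tgm1, the transglutaminase that cross-links the envelope, measured 0.234 and 0.190 FPKM (E14.5), 0.878 and 0.989 (E15.5) and then 6.37 and 4.49 (E16.5), with a log2 change of 2.39, SE 0.43, adjusted p = 0.00427. Sprr3 and Cnfn had no locus at E14.5. Sprr3 measured 0.950 and 0.735 FPKM (E15.5) and 73.8 and 40.8 FPKM (E16.5). Cnfn measured 0.680 and 1.36 FPKM (E15.5) and 40.0 and 25.7 FPKM (E16.5). The desmosomal cadherins Dsg3 and Dsg1a rose by 3.15 and 2.73. Krtdap, a secreted protein of differentiating keratinocytes, measured 4.87 and 2.69 FPKM (E14.5), 8.58 and 10.4 (E15.5) and then 143 and 69.9 (E16.5), with a log2 change of 4.44, SE 0.62, adjusted p = 0.00106. Dmkn rose by 5.31, on loci that covered under 50% of its exonic bases and with 1 E14.5 animal. With 11 promoter windows for genes of this list that rose or had no E14.5 locus, 4 held the AP-1 site TGACTCA or its complement TGAGTCA (Dmkn, Krt13, Krtdap and Sprr1a), against 5.16% of all genes. In 14 of the 15 genes E16.5 animal 1 was above animal 2.

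Motile cilia beat on the nasal face of the palate, and their genes are switched on together by Foxj1 and by factors of the RFX family. Of 16 tested 13 rose, against 4.68% of all genes tested, and none fell. For those under 1 FPKM at E14.5, such as Ccno, a fall could not have been called. Of the 12 axoneme genes 11 rose. Foxj1 (chromosome 11, 116192018 to 116196713) measured 1.73 and 0.934 FPKM (E14.5), 52.2 and 57.1 (E15.5) and then 53.6 and 44.7 (E16.5), with a log2 change of 4.44, SE 0.38, adjusted p = 1.13e-04. Its E15.5 animals were already level with those of E16.5. Lrrc23, of the radial spokes, measured 1.01 and 0.696 FPKM at E14.5 and 66.6 and 58.9 at E16.5 (log2 change 5.11, SE 0.34, adjusted p = 6.93e-05). Dynlrb2, a dynein light chain, measured 1.81 FPKM in the 1 animal with a value (E14.5), 46.6 and 56.2 (E15.5) and then 103 and 79.6 (E16.5), with a log2 change of 5.03, SE 0.45, adjusted p = 3.03e-04. Rsph1, of the radial spoke head, measured 1.46 FPKM in the 1 animal with a value (E14.5), 18.7 and 21.3 (E15.5) and then 38.4 and 31.4 (E16.5), with a log2 change of 3.86, SE 0.35, adjusted p = 2.33e-04. Tekt1, a filament protein of the microtubule wall, measured 1.92 and 1.47 FPKM (E14.5), 14.3 and 16.5 (E15.5) and then 21.4 and 18.4 (E16.5), with a log2 change of 2.96, SE 0.36, adjusted p = 5.04e-04, and Tppp3 9.87 and 24 FPKM (E14.5), 42.7 and 58.6 (E15.5) and then 85.9 and 97.9 (E16.5), a change of 2.49. Ccno, needed for making many basal bodies, measured 0.665 FPKM in the 1 animal with a value (E14.5), 18.0 and 21.1 (E15.5) and then 15.2 and 13.6 (E16.5) and changed by 3.21. Rfx2 measured 3.17 and 2.73 FPKM at E14.5 and 5.15 and 5.60 at E16.5. Rfx3 measured 3.79 and 2.94 FPKM at E14.5 and 4.87 and 4.08 at E16.5. Their changes of 0.69 and 0.33 did not reach 2-fold. A further 11 genes of the list had no locus at E14.5 and a value in all 4 E16.5 libraries, among them Ccdc153 (31.3 and 24.2 FPKM at E16.5), Ccdc113 (18.6 and 14.1 FPKM), Fam183b (15.9 and 16.3 FPKM) and Sntn (12.2 and 7.42 FPKM). Leaving out E14.5 animal 1 left 8 called. Ccno, Rsph1 and Dynlrb2 had an E14.5 value in that animal alone.

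GTTGCC is part of the X-box, the site of RFX factors, and it is shown upstream of 4 ciliary genes. Capitals mark GTTGCC or its complement GGCAAC. The stretches are from RefSeq (GRCm38.p6) and lie at chr6:124779834-124779929, minus strand, chr8:116504919-116505014, plus strand, chr11:72361883-72361962, minus strand, and chr13:112987552-112987633, plus strand.
Lrrc23: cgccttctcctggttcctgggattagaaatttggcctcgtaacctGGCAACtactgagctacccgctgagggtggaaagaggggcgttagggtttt
Dynlrb2: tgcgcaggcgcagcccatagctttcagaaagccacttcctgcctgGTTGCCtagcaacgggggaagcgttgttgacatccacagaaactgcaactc
Tekt1: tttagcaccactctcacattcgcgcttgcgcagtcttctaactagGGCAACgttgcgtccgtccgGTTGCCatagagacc
Ccno: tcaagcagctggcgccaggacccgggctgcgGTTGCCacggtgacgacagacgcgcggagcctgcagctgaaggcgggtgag
Of 24 ciliary genes that rose or had no E14.5 locus, 19 had a promoter window and 13 of these held the motif within 250 bases upstream. This is 68.4%, against 11.8% of 27025 genes. Those without it were Ak7, Ccdc40, Dnaic1, Rsph9, Spag17 and Tekt4. No test was made, and the matches are not measured binding.

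The airway secretory and gland list had 7 tested genes and 6 rose, against 4.68% of all genes tested. Bpifa1, secreted by nasal and airway epithelium, measured 5.04 and 0.413 FPKM (E14.5), 217 and 199 (E15.5) and then 239 and 106 (E16.5), with a log2 change of 5.78, SE 0.81, adjusted p = 0.00147. Cyp2f2, an enzyme of airway club cells, measured 2.78 and 0.644 FPKM (E14.5), 40.4 and 43.2 (E15.5) and then 52.8 and 59.3 (E16.5), with a log2 change of 4.51, SE 0.49, adjusted p = 2.35e-04. Reg3g, an antibacterial lectin, measured 1.12 FPKM in the 1 animal with a value (E14.5), 27.0 and 26.0 (E15.5) and then 48.7 and 26.7 (E16.5) and changed by 4.13. The glandular proteins Ltf, lactoferrin, and Lcn2 rose by 2.00 and 1.41. The E14.5 animals did not match for these genes, and their median ratio of animal 2 to animal 1 was 0.25 over the list. Summed over the list, the E14.5 animals had 13.7 and 2.35 FPKM, the E15.5 animals 303 and 285 and the E16.5 animals 361 and 215. Leaving out any 1 of the 4 animals left 4 genes called. A pseudocount of 5 left 3, and a fit of those 4 animals alone left 2.

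Olfactory epithelium, a neighbor of the nasal side, lies close to the palate and can be carried along in a dissection. Of 11 tested genes 1 rose, against 4.68% of all genes tested. This was Stoml3 (1.66), whose loci covered under 50% of the exonic bases in some animals. All 11 had their highest mean at E15.5, which was not counted over all genes. Summed over the list, the E14.5 animals had 56.8 and 12.4 FPKM, the E15.5 animals 136 and 131 and the E16.5 animals 29.0 and 60.9. Ugt2a1, an odorant-clearing enzyme, measured 25.4 and 1.35 FPKM (E14.5), 70.0 and 66.4 (E15.5) and then 9.29 and 25.7 (E16.5). The sums of E14.5 and E16.5 overlapped, and Stoml3 was not called without E14.5 animal 2. The part of the dissection line in the airway and ciliary changes was not tested.

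Immune cells were present at every age. Of 23 macrophage and leukocyte genes 8 rose, against 4.68% of all genes tested, and none fell. By adjusted p alone 19 of them were higher (8.96% of all genes tested were). Lyz2, lysozyme, measured 14.2 and 8.87 FPKM (E14.5), 46.1 and 42.8 (E15.5) and then 44.9 and 51.2 (E16.5), with a log2 change of 2.00, SE 0.24, adjusted p = 4.77e-04. Tyrobp, a signaling adaptor of myeloid cells, measured 8.33 and 8.68 FPKM (E14.5), 18.3 and 23.7 (E15.5) and then 26.3 and 31.4 (E16.5), with a log2 change of 1.64, SE 0.17, adjusted p = 1.55e-04. Csf1r, the receptor that macrophages need, measured 5.62 and 4.21 FPKM (E14.5), 8.49 and 10.2 (E15.5) and then 12.5 and 11.7 (E16.5), with a log2 change of 1.15, SE 0.13, adjusted p = 3.39e-04. Ctss, Fcer1g, Fcgr3, Itgb2 and Laptm5 rose by 1.41, 1.36, 1.15, 1.12 and 1.1. The complement genes C1qa, C1qb and C1qc changed by 0.91, 0.92 and 0.91, under 2-fold. For all 23 genes the change was above 0, whereas the median change of all genes tested was -0.0028. The median share of the change present at E15.5 was 71.6% in the 8 genes called. The core of the PU.1 site, GAGGAA or on the other strand TTCCTC, stood in 3 of 5 promoter windows (Ctss, Fcgr3 and Laptm5) and in 25.9% of all. Leaving out E14.5 animal 2 or a pseudocount of 5 left 5 of the 23 called, whereas leaving out E14.5 animal 1 or a pseudocount of 0.1 gave 13.

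Mast cells store histamine and proteases in granules, and 3 of 4 genes tested for them rose, against 4.68% of all genes tested. Cma1, a chymase, measured 3.09 and 2.26 FPKM (E14.5), 6.68 and 5.63 (E15.5) and then 17.4 and 22.2 (E16.5), with a log2 change of 2.50, SE 0.44, adjusted p = 0.00344. Tpsb2, a tryptase, measured 0.516 and 0.605 FPKM (E14.5), 2.19 and 1.67 (E15.5) and then 9.92 and 12.9 (E16.5), with a log2 change of 2.98, SE 0.43, adjusted p = 0.00223. Cpa3, a carboxypeptidase, measured 4.60 and 4.02 FPKM (E14.5), 5.38 and 5.23 (E15.5) and then 16.7 and 17.1 (E16.5), with a log2 change of 1.76, SE 0.41, adjusted p = 0.0168. Kit, their growth factor receptor and also a gene of melanocytes, measured 6.32 and 4.96 FPKM at E14.5 and 7.03 and 6.68 at E16.5 and was not called. Hdc, which makes histamine, was among the largest rises of all at 1.07 and 0.969 FPKM (E14.5), 13.4 and 2.83 (E15.5) and then 57.3 and 51.2 (E16.5), with a log2 change of 4.77, SE 0.52, adjusted p = 2.49e-04. Leaving out any 1 animal left 2 of the 4 list genes called and ended the call of Cpa3. Adipocyte genes were few, and Fabp4 rose from 3.62 and 3.52 FPKM to 26.1 and 30.2 FPKM (log2 change 2.67, SE 0.33, adjusted p = 4.92e-04). Fabp4 is also made by capillary endothelium. Lyve1, a marker of lymphatic endothelium and some macrophages, rose by 1.1 (not without animal 2 of either age), and the other 3 lymphatic genes tested did not pass.

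Endothelial cells line the vessels. None of 16 endothelial genes was called, where 4.68% of all genes tested rose and 0.342% fell. In so short a list no call is near those shares. None passed the adjusted p alone, against 8.96% upward and 4.58% downward of all genes tested. The summed level of the list lay between 225 and 240 FPKM in all 6 TGFβ3+/- animals. Cdh5, the cadherin of endothelial junctions, measured 31.5 and 32.6 FPKM (E14.5), 29.2 and 31.3 (E15.5) and then 29.8 and 33.2 (E16.5), with a log2 change of -0.03, SE 0.15, adjusted p = 0.939.

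Muscle and nerve differed between animals of an age. The share of all genes tested that rose was 4.68%. Of 28 skeletal muscle genes 2 rose, the fast troponins Tnnt3 (7.99 and 16.2 FPKM at E14.5 and 37.5 and 119 at E16.5, log2 change 2.45) and Tnni2 (5.59 and 10.5 FPKM at E14.5 and 30.1 and 86.9 at E16.5, log2 change 2.59). Both calls were lost when E16.5 animal 2 was left out, and also without either E14.5 animal or with only the 4 compared animals fitted. Muscle genes summed to 369 and 887 FPKM in the E14.5 animals, 443 and 504 in the E15.5 animals and 685 and 2310.3 in the E16.5 animals. The median ratio of animal 2 to animal 1 was 2.37 at E14.5 and 3.25 at E16.5. Acta1, skeletal actin, measured 35.1 and 83.6 FPKM (E14.5), 66.5 and 81.8 (E15.5) and then 98.3 and 362 (E16.5), with a log2 change of 1.78, SE 0.73, adjusted p = 0.134. The E14.5 and E16.5 animals did not overlap for Acta1, which was not counted over all genes. At E14.5 and at E16.5, but not at E15.5, animal 2 was more than 2-fold above animal 1 for Acta1. Neural genes gave no call among 14, with a median ratio of animal 2 to animal 1 of 3.35 at E16.5, and Nefl, a neurofilament, measured 6.19 and 81.7 FPKM (E14.5), 5.78 and 13.3 (E15.5) and then 8.58 and 38.9 (E16.5). None of the 14 passed the adjusted p. Of 6 Schwann cell genes, Mbp, a myelin protein, rose by 1.02 (kept in 1 of the 4 fits that left out an animal), and Sox10 measured 12.7 and 13.4 FPKM at E14.5 and 6.71 and 7.44 at E16.5 (log2 change -0.80, SE 0.25, adjusted p = 0.0551). Pituitary and tooth genes were rarely tested (1 and 2 genes) and none was called.

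**Figure D3:**
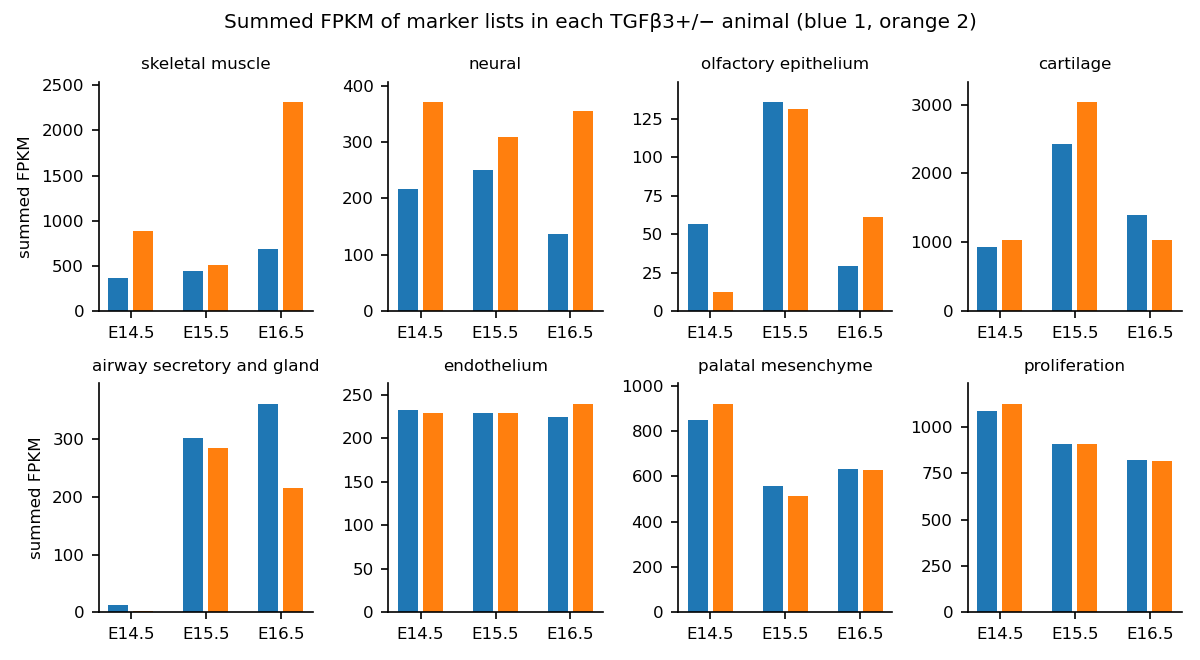
Summed FPKM of 8 marker lists (y axes, from 0) in each TGFβ3+/- animal, with animal 1 in blue and animal 2 in orange at each age (numbered within an age). A gene without a value in an animal adds nothing. Skeletal muscle reaches 2310.3 in animal 2 of E16.5 against 685 in animal 1, while the endothelial sum stays between 225 and 240.

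The palatal mesenchyme list holds transcription factors and signals of the shelf itself, and it checks the tissue label. All of Osr2, Shox2, Msx1, Pax9, Barx1, Tbx22 and Meox2 had values in every animal, and Barx1 measured 80.2 and 77.7 FPKM (E14.5), 35.9 and 29.6 (E15.5) and then 38.3 and 57.1 (E16.5), with adjusted p = 0.0729. The oral epithelial markers Krt5 and Trp63 were present as well. Of this list 9 of 31 genes tested fell in WT and 9 of 32 in TGFβ3-/- (0.66% and 0.935% of all genes tested). In TGFβ3+/- 1 of 32 fell and none rose, against 0.342% and 4.68% of all genes tested (median change -0.42). The highest mean was at E14.5 for 29 of the 32, which was not counted over all genes. The gene that fell was Mn1, a transcriptional regulator needed for palate growth, which measured 21.0 and 28.2 FPKM (E14.5), 11.2 and 11.2 (E15.5) and then 8.75 and 13.9 (E16.5), with a log2 change of -1.07, SE 0.18, adjusted p = 0.00273. Its call was lost without E14.5 animal 2 (-0.87) and without E16.5 animal 1 (-0.77). Osr2, which patterns the shelves, measured 40.3 and 39.5 FPKM (E14.5), 24.4 and 20.4 (E15.5) and then 24.6 and 25.8 (E16.5), with a log2 change of -0.65, SE 0.23, adjusted p = 0.0879. Msx1 measured 44.4 and 49.8 FPKM (E14.5), 34.2 and 18.3 (E15.5) and then 36.1 and 33.0 (E16.5), with a log2 change of -0.43, SE 0.21, adjusted p = 0.213. For Osr2 and Barx1 the animals of the 2 ages did not overlap, which was not counted over all genes, and the change missed the threshold. Pax3 and Meox2 varied widely between the E14.5 animals (10.1 and 2.61 FPKM and 4.53 and 11.1 FPKM).

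Cell division genes changed by less than 2-fold. None of 30 was called, although 14 passed the adjusted p alone and all 14 were lower (4.58% of all genes did so downward). Mcm4, of the replicative helicase, measured 47.7 and 47.4 FPKM (E14.5), 33.7 and 31.5 (E15.5) and then 27.5 and 28.5 (E16.5), with a log2 change of -0.74, SE 0.10, adjusted p = 7.80e-04. Mcm2 changed by -0.65 and Mcm6 by -0.53. Bub1, of the spindle checkpoint, measured 19.2 and 17.9 FPKM (E14.5), 12.4 and 10.9 (E15.5) and then 10.7 and 8.85 (E16.5), with a log2 change of -0.86, SE 0.16, adjusted p = 0.00568. The E14.5 and E16.5 animals did not overlap for these genes, which was not counted over all genes tested. Mki67, a general mark of cycling cells, measured 35.8 and 32.2 FPKM at E14.5 and 27.6 and 28.3 at E16.5 (log2 change -0.27, SE 0.15, adjusted p = 0.257), and Pcna 68.0 and 86.5 FPKM at E14.5 and 103 and 52.9 at E16.5. Pcna rests on the sum over its loci, and its change was 3.76 when the locus covering most of its exons was taken alone.

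Genes of early growth fell in part. Hmga2, a chromatin protein of proliferating embryonic mesenchyme, measured 46.2 and 83.9 FPKM (E14.5), 23.6 and 15.4 (E15.5) and then 13.6 and 14.5 (E16.5), with a log2 change of -2.07, SE 0.28, adjusted p = 8.79e-04. Igf2bp1, an RNA-binding protein of fetal tissue, measured 11.5 and 13.9 FPKM (E14.5), 6.41 and 6.09 (E15.5) and then 5.47 and 5.12 (E16.5), with a log2 change of -1.12, SE 0.13, adjusted p = 3.81e-04, and fell just short of 2-fold without E14.5 animal 2 (-0.99). Both are targets of the let-7 microRNAs. Of 10 imprinted growth genes none was called, where 4.68% of all genes tested rose and 0.342% fell. H19 and Igf2 were among the most abundant transcripts, with H19 at 2510.4 and 2947 FPKM at E14.5 and 3199 and 3568 at E16.5 and Igf2 at 753 and 968 FPKM at E14.5 and 895 and 1004 at E16.5. Their changes of 0.31 and 0.15 missed the threshold (adjusted p = 0.408 and 0.668).

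Further genes that fell lie outside these lists and were named after their values were seen, apart from Foxp2, Crym, Nanos3 and Palm, which were among the 12 largest falls. Mdk, midkine, a heparin-binding growth factor, measured 481 and 489 FPKM (E14.5), 364 and 295 (E15.5) and then 185 and 228 (E16.5), with a log2 change of -1.23, SE 0.16, adjusted p = 6.02e-04. Marcksl1 measured 391 and 401 FPKM (E14.5), 246 and 216 (E15.5) and then 180.3 and 182 (E16.5), with a log2 change of -1.12, SE 0.16, adjusted p = 0.00121. Both were abundant, and in both the E15.5 animals lay between the other ages. Twist2, a mesenchymal transcription factor, measured 25.7 and 23.4 FPKM (E14.5), 9.49 and 7.34 (E15.5) and then 8.80 and 10.9 (E16.5), with a log2 change of -1.24, SE 0.25, adjusted p = 0.00810. Aldh1a2, which makes retinoic acid, measured 63.9 and 46.7 FPKM (E14.5), 32.1 and 30.3 (E15.5) and then 26.1 and 19.7 (E16.5), with a log2 change of -1.23, SE 0.34, adjusted p = 0.0332. Sulf2, which trims heparan sulfate, measured 117 and 131 FPKM (E14.5), 75.1 and 74.6 (E15.5) and then 55.4 and 67.5 (E16.5), with a log2 change of -1.01, SE 0.16, adjusted p = 0.00235. Foxp2 fell by 1.5 on the log2 scale, and Crym, Nanos3 and Palm by 1.65, 1.73 and 1.95. Each of these calls was lost without animal 1 of either age, with the lower-numbered lane alone and with only the 4 compared animals fitted. The call of Crym was lost on leaving out any 1 animal, and that of Foxp2 also without E14.5 animal 2. Palm rests on loci that cover under 50% of its exonic bases in some animals. Of the 12 largest falls, Mrp63, Ccdc106, B3galt6, Foxl2 and Rps28 had a value in 1 animal of at least 1 age and are the least certain.

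TGFβ ligands are made with a latency peptide, stored by latent binding proteins in the matrix, and act through a receptor pair on Smad proteins. Of 33 members tested 2 rose and none fell (median change -0.03), against 4.68% and 0.342% of all genes tested. With only the E14.5 and E16.5 TGFβ3+/- animals in the fit 1 rose, and with a pseudocount of 0.1 4 did. Among ligands Tgfb1 rose, and measured 9.86 and 9.85 FPKM (E14.5), 17.2 and 17.6 (E15.5) and then 27.8 and 24.3 (E16.5), with a log2 change of 1.31, SE 0.19, adjusted p = 0.00147. Tgfb2 measured 24.3 and 19.3 FPKM (E14.5), 16.3 and 19.6 (E15.5) and then 14.5 and 17.5 (E16.5), with a log2 change of -0.42, SE 0.15, adjusted p = 0.0931. Its E16.5 animals lay below the E14.5 animals without passing. The activin chain Inhba measured 5.64 and 3.77 FPKM at E14.5 and 8.73 and 5.37 at E16.5, and Inhbb 0.488 and 0.893 FPKM at E14.5 and 1.77 and 1.39 at E16.5 with adjusted p = 0.0399.

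Among receptors Tgfbr2 passed the adjusted p without reaching 2-fold (11.2 and 11.7 FPKM at E14.5 and 17.6 and 15.5 at E16.5; log2 change 0.49, SE 0.11, adjusted p = 0.0108). Tgfbr1 measured 37.6 and 30.0 FPKM at E14.5 and 28.4 and 21.5 at E16.5, Tgfbr3 7.83 and 8.24 FPKM at E14.5 and 7.47 and 7.63 at E16.5, Acvr1b 12.7 and 11.3 FPKM at E14.5 and 11.8 and 13.8 at E16.5 and Acvr2b 4.36 and 5.52 FPKM at E14.5 and 3.01 and 4.23 at E16.5. None of these 4 passed. The 10 intracellular members ranged from -0.40 for the inhibitor Smad7 to 0.11 for the ubiquitin ligase Smurf2, and none passed. Smad2, Smad3 and Smad4, which carry the signal, changed by -0.26, -0.17 and -0.32. Of the matrix members Ltbp4, a latent binding protein on elastic fibers, rose and measured 19.8 and 16.0 FPKM (E14.5), 27.1 and 31.1 (E15.5) and then 34.2 and 43.3 (E16.5), with a log2 change of 1.07, SE 0.19, adjusted p = 0.00420. Ltbp2 measured 2.10 and 1.32 FPKM at E14.5 and 6.08 FPKM in the 1 animal with a value at E16.5 (log2 change 1.4, SE 0.46, adjusted p = 0.0733). Ltbp1 and Ltbp3 changed by 0.06 and 0.34, and Thbs1, which can free the ligand, by -0.31. Of 8 target genes none was called. Tgfbi measured 43.0 and 48.6 FPKM at E14.5 and 22.1 and 32.0 at E16.5 (log2 change -0.76, SE 0.27, adjusted p = 0.0827) and Ctgf 37.6 and 33.1 FPKM at E14.5 and 35.2 and 27.5 at E16.5. Snai1, Snai2, Zeb1 and Zeb2, factors of epithelial to mesenchymal change, moved by -0.20, -0.39, -0.08 and 0.21 without passing. Without E14.5 animal 2 or E16.5 animal 2 the pathway had 1 call, since Ltbp4 was lost in both, and without E16.5 animal 1 it had 3.

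Other signaling lists moved in few members. None of 20 BMP members was called, where 4.68% of all genes tested rose and 0.342% fell. None passed the adjusted p alone, against 8.96% upward and 4.58% downward of all genes tested. The BMP target Id3 measured 126 and 102 FPKM at E14.5 and 87.1 and 95.1 at E16.5. In the hedgehog list Hhip, a membrane protein that binds the ligand away, rose and measured 1.86 and 1.61 FPKM (E14.5), 4.91 and 4.44 (E15.5) and then 6.28 and 4.4 (E16.5), with a log2 change of 1.20, SE 0.22, adjusted p = 0.00420, which was not called without E16.5 animal 1. Shh measured 1.96 and 0.933 FPKM at E14.5 and 4.44 and 4.17 at E16.5 and was not called (log2 change 1.15, SE 0.37, adjusted p = 0.0636), while its receptor Ptch1 measured 22.2 and 25.2 FPKM at E14.5 and 29.4 and 28.3 at E16.5. In the Wnt list 5 of 32 rose, against 4.68% of all genes tested, and 2 with only the compared animals in the fit. Of these 3 encode secreted inhibitors or relatives of them. Wif1 measured 10.5 and 12.4 FPKM (E14.5), 22.2 and 21.8 (E15.5) and then 58.0 and 37.5 (E16.5), with a log2 change of 1.94, SE 0.35, adjusted p = 0.00426. Sfrp4 measured 1.69 and 2.39 FPKM (E14.5), 6.77 and 5.66 (E15.5) and then 13.6 and 7.65 (E16.5), with a log2 change of 1.90, SE 0.27, adjusted p = 0.00122. Dkk3 measured 11.3 and 15.8 FPKM (E14.5), 24.6 and 22.0 (E15.5) and then 32.4 and 31.8 (E16.5), with a log2 change of 1.21, SE 0.18, adjusted p = 0.00157, a call that was lost without E14.5 animal 1. The others were the ligand Wnt10a (1.04 and 1.31 FPKM at E14.5 and 3.43 and 3.54 at E16.5, log2 change 1.05) and the transcription factor Tcf7 (10.6 and 11.6 FPKM at E14.5 and 27.8 and 27.9 at E16.5, log2 change 1.26). The pathway target Axin2 measured 12.2 and 12.5 FPKM at E14.5 and 11.8 and 10.7 at E16.5 (log2 change -0.12, SE 0.12, adjusted p = 0.575) and the receptor Fzd2 42.6 and 46.0 FPKM at E14.5 and 25.7 and 27.1 at E16.5 (log2 change -0.73, SE 0.14, adjusted p = 0.00549), lower but under 2-fold.

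Genes that can mark handling of tissue were read beside these. Fos measured 1.69 and 1.86 FPKM (E14.5), 7.21 and 4.61 (E15.5) and then 7.01 and 9.45 (E16.5), with a log2 change of 1.72, SE 0.19, adjusted p = 2.60e-04. Junb measured 3.40 and 2.70 FPKM (E14.5), 5.94 and 4.64 (E15.5) and then 7.52 and 7.77 (E16.5), with a log2 change of 1.1, SE 0.21, adjusted p = 0.00579, which was not called without E14.5 animal 2. Of 11 stress and immediate early genes tested these 2 rose, against 4.68% of all genes tested, and neither did with a pseudocount of 5. By adjusted p alone 5 were higher, against 8.96% of all genes tested. Of the 11, 9 had a change above 0, and the median change was 0.75. Ier3, Zfp36 and Hspa1b passed the adjusted p under 2-fold, with changes of 0.85, 0.86 and 0.88. Jun, Ier2 and Dusp1 had changes of -0.05, -0.05 and 0.17 and did not pass. In the hypoxia list Ndrg1 measured 12.5 and 9.19 FPKM (E14.5), 30.7 and 36.4 (E15.5) and then 30.5 and 30.0 (E16.5), with a log2 change of 1.41, SE 0.28, adjusted p = 0.00641. Car9 rose by 1.38 on loci that covered under 50% of its exonic bases in some animals, while Vegfa, Slc2a1 and Ldha had changes of 0.08, -0.01 and -0.01. The part of handling in these changes was not tested. Without E14.5 animal 2 neither Ndrg1 nor Car9 was called.

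Of 320 genes in the copy of the study's cleft palate list used here, 319 were found in the annotation and 261 were tested. Of these 3 rose and 1 fell, against 4.68% and 0.342% of all genes tested. Lmna, a nuclear lamin, measured 44.4 and 41.2 FPKM (E14.5), 91.4 and 91.7 (E15.5) and then 137 and 142 (E16.5), with a log2 change of 1.68, SE 0.26, adjusted p = 0.00309. Tgfb1, Sfn and Mn1 are given above. By adjusted p alone 11 were higher and 17 lower, against 8.96% and 4.58% of all genes tested. The median change of the list was -0.11. Without E14.5 animal 1 the list had 7 rises, and without E16.5 animal 2 it had 6.

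Genes that no library of 1 age assembled are outside the test, because the tables list no value for them. There were 276 genes with no locus at E14.5 and a value in all 4 E16.5 libraries, and 194 of them had a mean E16.5 level of at least 1 FPKM and 49 of at least 5. The reverse held for 31 genes, 9 of them at 1 FPKM or more at E14.5. Of the 276, 243 had a value at E15.5. The same pattern was seen in WT for 148 of the 276 (53.6%) and in TGFβ3-/- for 206 (74.6%). Igfbp7, a secreted binding protein of vessels and matrix, was at 26.5 and 26.4 FPKM at E15.5 and 33.0 and 36.3 FPKM at E16.5. It was already near its E16.5 level at E15.5. Ciliary genes such as Meig1 (26.6 and 21.2 FPKM at E16.5) and Tmem212 (31.4 and 16.4 FPKM) were among them. A missing locus is not a level of 0, since depth and assembly both decide whether a locus is listed.

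The E15.5 palates give a level between the 2 ages. This is a description, with 2 animals and lanes of their own. All 11 olfactory and 17 of 20 cartilage genes tested had their highest mean at E15.5. The part of dissected tissue in the shares below was not tested. Over 588 genes that rose and had an E15.5 value, a median of 59.7% of the log2 change was present at E15.5, and 121 genes had at least 80% of it. For the genes that fell the median was 60.8% (38 genes). Among lists with at least 3 genes that rose, cleft palate genes left out, airway secretory genes had 89.4% of their change (6 genes) and motile cilia 81.5% (12 genes), followed by macrophage genes at 71.6%. Connective matrix had 58.4% and bone matrix 55.9%. The Wnt list had 46.3% and basal epithelium 41.5%, with osteoclast genes at 36.1%, cornified epithelium at 34.3% and mast cell genes at 30.4%. Foxj1 and Bpifa1 were thus near their E16.5 level at E15.5, while Krt4 was at 8.68 and 10.3 FPKM on its way to 159 and 109 FPKM.

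**Figure D4:**
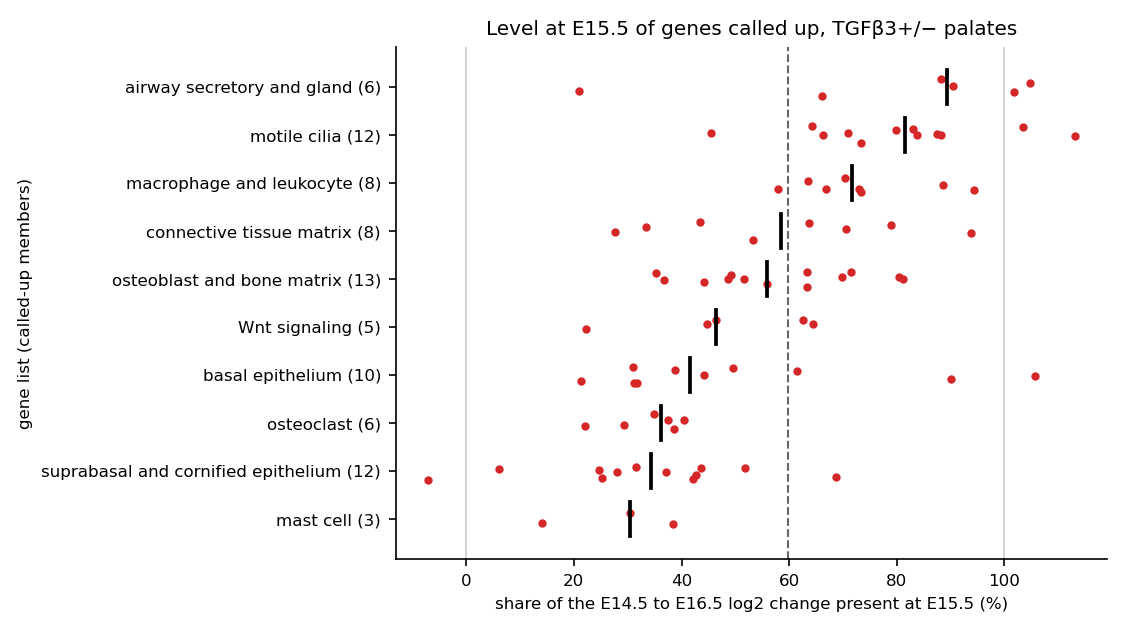
Share of the log2 change from E14.5 to E16.5 present at E15.5 (x axis, percent) in TGFβ3+/- palates, for genes called up in the 10 lists with at least 3 of them, other than the cleft palate genes (y axis, number of genes in parentheses). Points are genes, black bars are list medians and the dashed line is the median of all genes called up, 59.7%. Airway and ciliary genes sit to the right, cornified, osteoclast and mast cell genes to the left.

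The same comparison was made in WT and TGFβ3-/- palates, with other animals. In WT 7.53% of the genes tested rose and 0.66% fell, and in TGFβ3-/- 5.88% rose and 0.935% fell. Of 12480 genes tested in TGFβ3+/- and WT, 581 rose in TGFβ3+/- and 918 in WT, and 461 rose in both, which is 79.3% of the former and 50.2% of the latter. Of 41 that fell in TGFβ3+/- and 79 in WT, 18 fell in both (43.9% and 22.8%). Against TGFβ3-/-, 463 genes rose in both, 81.9% of 565 and 63.3% of 731, and 23 fell in both, 56.1% of 41 and 20.7% of 111. Of the 120 genes that rose in TGFβ3+/- and were not called in WT, 114 had a positive change in WT. Across genes the correlation of the changes was 0.754 with WT and 0.817 with TGFβ3-/-, a description, since genes are not replicates and the genotypes share lanes at each age. The embryonic globins fell in all 3 genotypes. In WT Hbb-y measured 1144 and 2362 FPKM at E14.5 and 4.93 and 6.39 at E16.5, and in TGFβ3-/- 1900.0 and 1141 FPKM at E14.5 and 2.73 and 3.34 at E16.5. The only gene called in opposite directions was Ccdc106, which rose in WT and fell in TGFβ3+/- with a value in 1 animal of each TGFβ3+/- group.

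**Figure D5:**
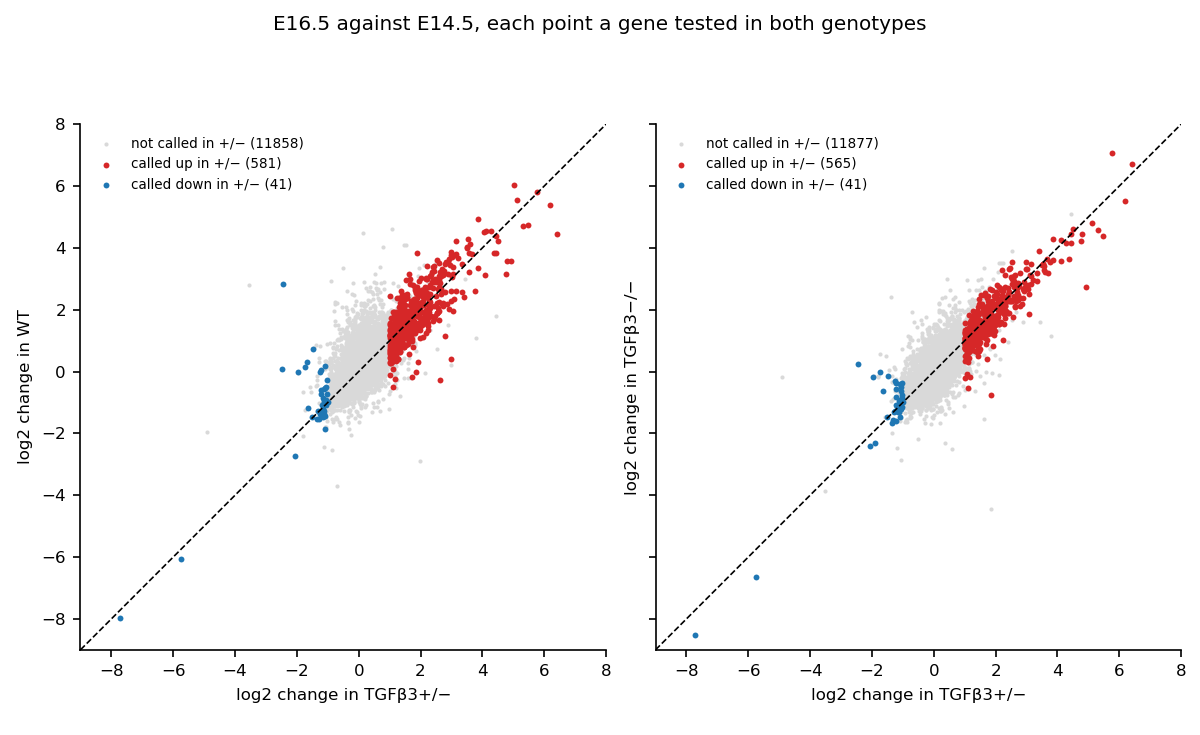
Log2 change from E14.5 to E16.5 in TGFβ3+/- palates (x axes) against that in WT (left) and TGFβ3-/- (right) palates (y axes), each point a gene tested in both, with the line of equal change dashed. Red points rose and blue points fell in TGFβ3+/-. Of the 581 red points on the left 461 were also called up in WT, and of the 565 on the right 463 in TGFβ3-/-.

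Whether the change itself differed between genotypes was tested as an interaction. No gene passed an adjusted p of 0.05 by limma in TGFβ3+/- against WT (0 of 12480, 0.0%) or against TGFβ3-/- (0 of 12483, 0.0%). At an unadjusted p under 0.05 there were 616 (4.94%) and 381 (3.05%). The tests had 2 animals in each of 4 groups. The smallest p against WT belonged to Ptpmt1 (difference -3.82, SE 0.24, adjusted p = 0.0688) and rested on 1 animal of each genotype at E14.5, at 13.7 FPKM in TGFβ3+/- and 0.0130 in WT. Among the genes with the smallest p against TGFβ3-/- was Ptx3, a pentraxin of inflamed and matrix-rich tissue. It measured 6.70 and 5.76 FPKM at E14.5 and 17.9 and 11.9 at E16.5 in TGFβ3+/-, 15.5 and 19.3 FPKM at E14.5 and 12.3 and 11.7 at E16.5 in WT and 13.5 and 16.7 FPKM at E14.5 and 9.26 and 11.1 at E16.5 in TGFβ3-/-. Ptx3 was called in TGFβ3+/- (log2 change 1.11), while the changes of -0.49 in WT and -0.53 in TGFβ3-/- did not pass. The change in TGFβ3+/- differed by 1.64 on the log2 scale from that in TGFβ3-/- (SE 0.32, adjusted p = 0.781). When only the locus covering most of its exons was taken, the TGFβ3+/- change of Ptx3 was -0.13. Its call in TGFβ3+/- was also lost without E14.5 animal 2 (log2 change 1.02), without E16.5 animal 1 (0.84), with either lane alone, with a pseudocount of 5 (0.81), and with only the 4 compared animals in the fit. Ddx51, an RNA helicase, measured 5.09 and 5.15 FPKM at E14.5 and 4.30 and 5.83 at E16.5 in TGFβ3+/- and 10.9 and 10.6 FPKM at E14.5 and 3.95 and 4.08 at E16.5 in TGFβ3-/- (difference 1.20, SE 0.20, adjusted p = 0.659). Krt4 changed by 6.42 in TGFβ3+/- and by 4.45 in WT (difference 1.97, SE 0.64, adjusted p = 0.942), and by 6.70 in TGFβ3-/-.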

How the data were processed

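Poly(A) RNA of dissected palates was sequenced on an Illumina HiSeq instrument. The authors aligned reads to mouse mm9 with TopHat 1.4.1, after FastQC 0.10.1, and Cufflinks 1.3.0 assembled loci and gave each an FPKM value with a 95% interval, per the file headers and the submitters' processing notes. The deposited tables hold FPKM and no counts, names or strand. Loci were joined here to 26233 annotated genes by shared exonic bases. Locus values were summed per gene in proportion to the exonic bases each locus covered. A gene counted as missing if its locus held at least 50% of a different protein-coding gene, or if at least 50% of its bases fell in loci given to different genes, and so overlapping and near-identical genes are uncertain. Lanes were averaged. A gene with no locus was left missing.

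limma 3.58.1 (R 4.3.3; Python 3.11.15) was fitted to log2(FPKM + 1) of 9 groups with a mean-variance trend, for genes at 1 FPKM or more in at least 2 animals. All p-values printed are from this fit, 2-sided, adjusted by Benjamini-Hochberg over all genes tested, and measure only the spread between these samples. On simulated data of 10335 genes, 91 of 100 genes changed 4-fold were called and 35 of 100 changed 2-fold. Of 10135 unchanged genes 2 were called. The test on the palates had 12856 genes, 11789 of them with a value in all 4 compared animals. Of the genes that rose, 103 had a value in 1 animal of a group. Whole lists also differed between animals of an age, as muscle did at E16.5 (median ratio of animal 2 to animal 1 of 3.25). Whether the simulated rates hold for such genes was not tested. Members and the 31 gene lists were chosen with earlier results of these data known. The rule for genes to name took Tgfb3, the 12 largest changes each way, the 4 largest calls and 3 highest levels of each list, every member of the TGFβ, globin, sex-linked and short lists, and the 5 smallest interaction p of each kind. Not every gene it took is printed, and other genes were named after their values were seen. The design text speaks of triplicates, whereas the labels give 2 animals a group. Single values of 4 genes are not reported here.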

Additional observations from a re-analysis of the deposited data

How the results depend on the processing

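From E14.5 to E16.5 in TGFβ3+/- the rising and falling genes numbered 602 and 44. They were 234 and 16 with a pseudocount of 5, 279 and 23 when only these groups entered the fit, 210 and 5 by limma's treat against 1.5-fold, and 1152 and 589 by adjusted p alone. Leaving out 1 animal gave 396 to 570 that rose and 32 to 66 that fell, with 396 without E14.5 animal 2. The cause was not tested. A pseudocount of 5 shrinks the changes of low values, treat tests against 1.5-fold and adjusted p alone drops the fold limit. The remaining fits hold fewer samples. Both counts stayed within 1.5 times of these under a pseudocount of 0.1, no filter, a filter at 5 FPKM, other scalings, single lanes, no trend, missing genes set to 0 and the best single locus, and for genes with covered exons of at least 50% (489 and 39, added after the data were seen). The genotype differences, 0 in each case, became 2 against WT with a pseudocount of 0.1, and 1 with median-ratio scaling, the lower-numbered lane or the best locus. Against TGFβ3-/- they became 1 with the higher-numbered lane or the best locus. Leaving out 1 animal gave 0 to 1 for both. With the replicate number as a block 583 genes rose and 41 fell, with 0 differences for either genotype. Same-numbered animals of the 2 ages deviated together (r = 0.314), but they are different embryos and share only a number. With the best single locus the changes of Pcna and Ptx3 reversed, to 3.76 and -0.13. Of 77 named genes called, 37 were called in every alternative that tested them.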

Other observations

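Most genes that changed lay in none of the lists: 503 of the 602 that rose and 39 of the 44 that fell. The groups below were formed after the values were seen and carry no test as groups. Of all genes tested 4.68% rose. Families counted but not described below were collagens (10 of 35 rose), claudins (2 of 13) and matrix metalloproteinases (2 of 9). The others were tetraspanins (1 of 17), kallikreins (1 of 2) and Hox genes (0 of 2). All 3 metallothioneins tested, which bind zinc and copper, rose. Mt1 measured 17.6 and 12.5 FPKM (E14.5), 51.7 and 50.5 (E15.5) and then 99.2 and 73.4 (E16.5), with a log2 change of 2.45, and the change was 2.07 for Mt2 and 2.62 for Mt3. Of 11 S100 genes 4 rose. S100a6 measured 15.5 and 14.4 FPKM (E14.5), 39.3 and 46.3 (E15.5) and then 90.9 and 76.5 (E16.5), with a log2 change of 2.40, and S100a14, of epithelium, changed by 2.56. Of 18 serpins 7 rose and all were of the Serpinb clade, in which Serpinb5 changed by 2.24. Anxa1 measured 42.5 and 34.0 FPKM (E14.5), 94.8 and 80.5 (E15.5) and then 206 and 148 (E16.5), with a log2 change of 2.17 and Anxa8 changed by 3.04, while the other 7 annexins tested were not called.

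Cdkn1a, an inhibitor of cyclin-dependent kinases, measured 12.1 and 17.1 FPKM (E14.5), 47.7 and 56.0 (E15.5) and then 64.3 and 60.8 (E16.5), with a log2 change of 2.04, SE 0.25, adjusted p = 5.04e-04, the only one of 4 such inhibitors tested that was called. Lgals3, a galectin of macrophages and epithelium, rose by 3.65, and Cbr2, a carbonyl reductase of airway cells, by 4.26. Genes known from ciliated cells outside the list also rose, among them Nme5 (3.59), Capsl (3.5) and Enkur (2.92). None of 5 insulin-like growth factor binding proteins tested was called.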
